A study of Mus musculus with 18 samples.

Results

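A set of 10 genes of peroxisome proliferator-activated receptor (PPAR) signalling and of the lipid droplet was followed in bone marrow-derived macrophages (BMDMs). They are the receptors *Pparg* and *Ppard*, the droplet and cholesterol ester genes *Plin2*, *Hilpda*, *Soat1* and *Pnpla2*, the fatty acid oxidation genes *Cpt1a* and *Pdk4*, and the target genes *Angptl4* and *Fabp4*. The members were chosen by gene symbol, and all 10 were found among the 31053 genes of the count table. Of the members, 9 passed the filter on low counts and were tested, and *Pdk4* did not.

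The RNA-Seq covered 18 libraries in 6 groups of 3 mice. Macrophages were grown from the marrow of 12-week-old C57BL/6J mice, either knockout for the amino acid transporter gene *Slc7a7* (Slc7a7-/-, KO) or its controls (Slc7a7+/+, WT), and 100000 cells were exposed for 24 h to vehicle (Control), to 50 μg/mL of acetylated LDL (AcLDL) or to 100 μg/mL of oxidized LDL (OxLDL). The deletion is driven by LysM-Cre, a Cre recombinase expressed from the *Lyz2* locus in myeloid cells, and the 3 media of a genotype came from the same 3 mice. AcLDL and OxLDL were given at different doses, so the kind and the dose of lipoprotein cannot be told apart. Each library's label ends in a running number, lower for every WT than for every KO library, whose meaning is not given in the sources used here, so whatever follows that number and genotype cannot be told apart.

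PPARs are nuclear receptors for fatty acids and their oxidized derivatives. They bind DNA as heterodimers with the retinoid X receptor (RXR), on paired AGGTCA half-sites spaced by a single base (DR1), and raise the transcription of genes for fatty acid uptake, storage and oxidation. Macrophages that take up modified LDL store the cholesterol as esters in lipid droplets, and such lipid-laden macrophages are the foam cells of atherosclerotic plaques. Droplet proteins such as perilipin 2 coat the droplet surface and limit the access of lipases.

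Total counts ranged from 1043492 to 1768816 per library, and a gene with 0 counts may still have stood at up to 3 counts, or 1.67 to 2.85 CPM (counts after scaling for library size). Such limits cover the error of counting alone, as reads were counted and not molecules. *Slc7a7* was lower in KO than in WT libraries without overlap in each medium, with means of 6.58 against 14.9 CPM in Control, 3.27 against 25.3 CPM with AcLDL and 9.91 against 28.0 CPM with OxLDL, of which the difference with AcLDL passed the test (adjusted p = 0.000472 with edgeR). All 8 macrophage markers were present in every group, among them *Adgre1* (795 to 2170 CPM) and *Cd68* (491 to 682 CPM). Their sum differed between the media in KO, at 17969.7 to 21292 CPM in Control, 15201 to 17667 CPM with AcLDL and 12568 to 14588 CPM with OxLDL without overlap, and it overlapped between the media in WT. The summed level of the adipocyte list, whose cells are rich in PPARγ, *Fabp4* and perilipins, was 0 to 1.79 CPM, with *Plin4*, *Retn* and *Cfd* at 0 in all libraries. Summed markers of dendritic, lymphoid and erythroid cells reached at most 4.62, 1.21 and 1.86 CPM, and those of stromal cells 26.0 CPM. The endothelial list gave 74.2 to 132 CPM, of which *Vwf* gave 66.1 to 119 CPM and *Kdr* 4.64 to 16.5 CPM in all libraries, while *Pecam1* (0 to 5.89 CPM), *Cdh5*, *Tek* and *Emcn* were at or near 0. The neutrophil list gave 24.4 to 249 CPM, and its highest sums with AcLDL and OxLDL were both in WT mouse 1.

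Per kilobase of annotated exon, the members fell into a wide order of levels. *Plin2* (chr4:86648386-86670060 of GRCm38, minus strand), which encodes the perilipin of most non-adipose droplets, had a mean of 152 CPM per kb over the 18 libraries (range 125 to 175). *Soat1* (chr1:156424525-156474331, minus strand), the acyltransferase that esterifies cholesterol in macrophages, followed with 56.1 CPM per kb (41.4 to 70.0). The ranges of these genes overlapped neither each other nor that of any other member. *Pnpla2* (chr7:141455198-141460743, plus strand), which encodes adipose triglyceride lipase, and *Cpt1a* (chr19:3322334-3385733, plus strand), the carnitine palmitoyltransferase that lets long-chain fatty acids into mitochondria, had 19.1 and 17.9 CPM per kb with overlapping ranges. *Pparg* (chr6:115360951-115490399, plus strand) had 13.6 CPM per kb (6.68 to 18.2), and *Ppard* (chr17:28232700-28301474, plus strand) 1.79 CPM per kb (0.896 to 2.62), so the receptors' ranges did not overlap. *Fabp4* (chr3:10204088-10208576, minus strand), a fatty acid binding protein, had 3.46 CPM per kb, a value set low by an annotated transcript that spans the whole locus. *Angptl4* (chr17:33773750-33781830, minus strand), a secreted inhibitor of lipoprotein lipase, had 1.44 CPM per kb, and *Hilpda* (chr6:29272488-29275446, plus strand), a small droplet protein that inhibits adipose triglyceride lipase, 1.03 CPM per kb, with ranges that overlapped that of *Ppard*. *Pdk4* (chr6:5483351-5496309, minus strand), a kinase that shuts off pyruvate dehydrogenase, had 2 counts in 1 WT library with OxLDL and 0 counts in the other 17 libraries. *Gm44079* overlaps *Pparg* and *Gm37648* overlaps *Soat1* on the opposite strand, and the strand setting of the counting is not given in the sources used here, so these counts could include antisense reads. For *Plin2*, 5.05% of the 31-base words of its transcripts also occur in transcripts of other genes, among them *Gm12551*, and for the other members at most 2.15%.

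The promoters show how far the letters of the PPAR response element are present at these genes. RefSeq promoters of GRCm38.p6 were at hand for 8 of the 10 members (11 promoters), and *Angptl4* and *Fabp4* had no entry. A strict DR1 (AGGTCANAGGTCA, either strand, 250 bases before to 50 after the start) was in 0 of the 11 and in 0.0396% of all 32851 promoters, and a looser form (AGGNCANAGGNCA) was in 0 of the 11 and in 0.381% of all. Single half-sites (AGGTCA on either strand) were in 4 promoters of 3 members (*Plin2*, *Cpt1a* and *Pparg*), against 16.3% of all promoters. ACGTG, the core of the hypoxia response element, was in 3 promoters of 3 members (*Plin2*, *Hilpda* and *Ppard*), against 19.6% of all. The 250 bases upstream of *Plin2*, the member with the smallest p with OxLDL in WT, and of *Cpt1a* are printed 5′ to 3′ with the half-site in capitals, where TGACCT is AGGTCA read on the other strand. They lie at chr4:86670060-86670309 (minus strand) and chr19:3323051-3323300 (plus strand).
Plin2: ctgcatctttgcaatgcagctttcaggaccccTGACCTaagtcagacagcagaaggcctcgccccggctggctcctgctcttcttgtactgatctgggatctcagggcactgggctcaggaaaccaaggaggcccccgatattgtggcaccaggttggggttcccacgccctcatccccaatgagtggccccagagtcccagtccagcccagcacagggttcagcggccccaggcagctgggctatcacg
Cpt1a: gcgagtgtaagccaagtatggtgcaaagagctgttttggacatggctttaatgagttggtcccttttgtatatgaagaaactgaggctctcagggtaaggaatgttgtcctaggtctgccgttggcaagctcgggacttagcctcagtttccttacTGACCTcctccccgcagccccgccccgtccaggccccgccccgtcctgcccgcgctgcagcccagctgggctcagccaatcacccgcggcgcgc
Counted from the start of transcription, the half-site of *Plin2* begins at -218 and that of *Cpt1a* at -94. A match is a string of letters only, and enhancers were not searched.

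No member passed the test of edgeR (adjusted p under 0.05 over 12290 genes) in any of the 11 comparisons made, in the fit without the mouse as a block. With that block, which was not fitted for KO against WT within a medium, edgeR called 1 member in 1 comparison, *Plin2* with OxLDL in WT (adjusted p = 0.0134). With AcLDL against Control, 0 of 9 tested members passed in WT macrophages, where 0.472% of all tested genes did, and 0 of 9 in KO macrophages (background 0.521%). Without the block, 0 of 9 passed with OxLDL against Control in WT (background 1.34%) and 0 of 9 in KO (background 2.32%). DESeq2 also called *Plin2* with OxLDL in WT and no other member. It gave no adjusted p, and so could make no call, for *Ppard*, *Angptl4*, *Fabp4* and *Hilpda* for OxLDL over AcLDL in either genotype. The same held for *Angptl4* with OxLDL in KO, and for *Hilpda* with OxLDL in WT and KO and with AcLDL in KO. At an unadjusted p under 0.05, *Plin2* and *Angptl4* stood out with OxLDL in WT (10.03% of all genes) and *Angptl4* and *Fabp4* with AcLDL in KO (7.53% of all genes), with 0 members for AcLDL in WT (7.33%) and for OxLDL in KO (12.3%). The median log2 fold change of the 9 members was 0.10 with AcLDL and 0.28 with OxLDL in WT, and -0.01 and 0.12 in KO, while the median of all genes was within 0.01 of 0 in each. Within a genotype, the AcLDL and OxLDL comparisons share their control libraries. In these bulk libraries, fewer cells of a type and less RNA per cell cannot be told apart.

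**Figure D1:**
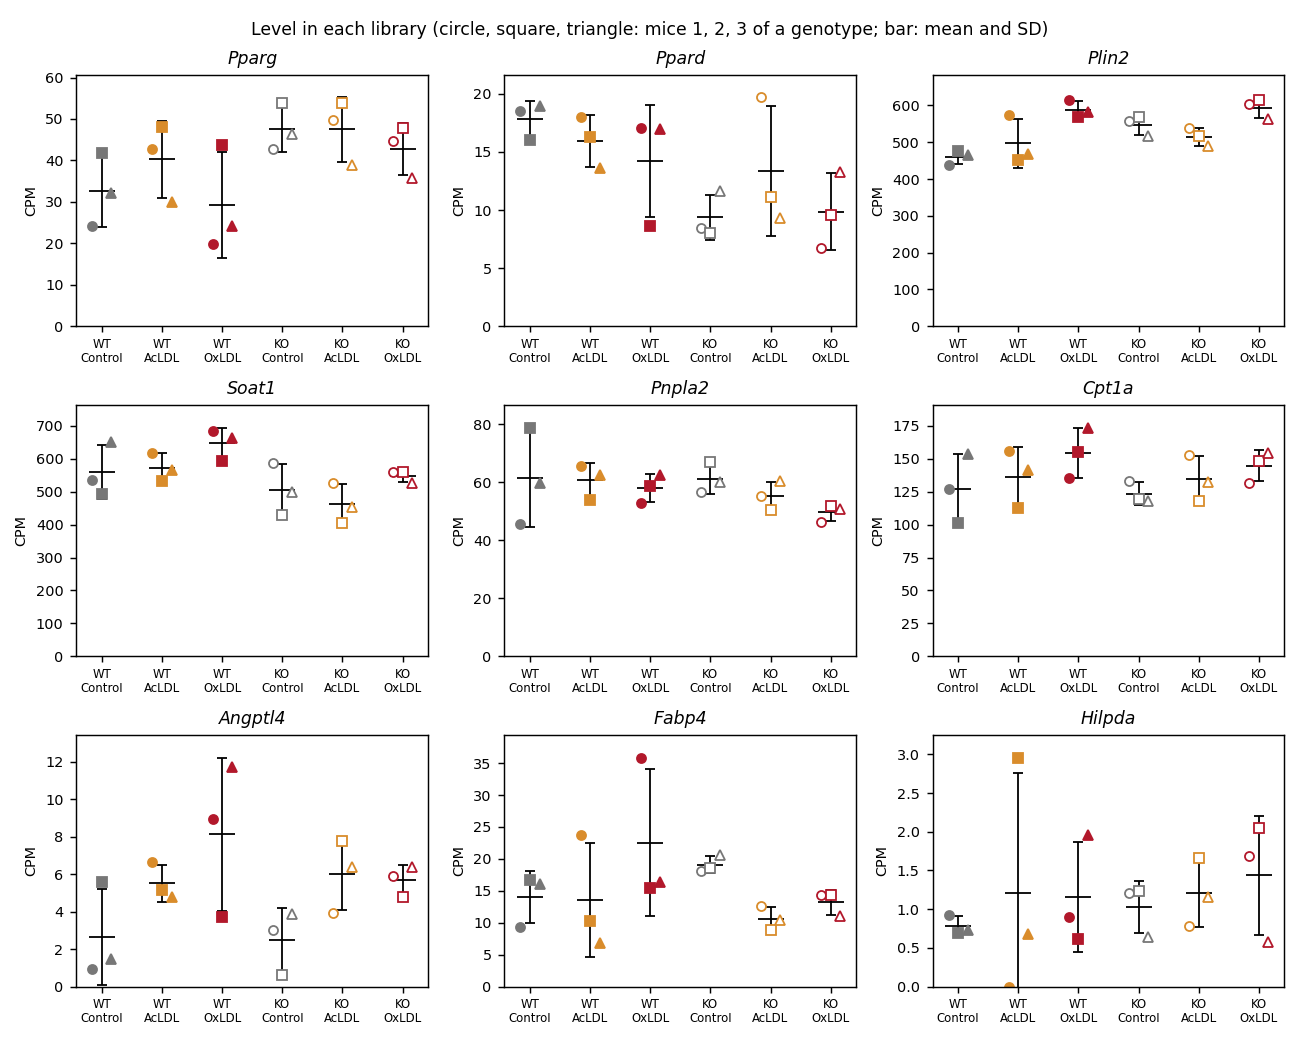
Level of 9 members (y axes, CPM from 0) in each of the 6 groups (x axes). Each point is 1 library, with circle, square and triangle for mice 1, 2 and 3 of a genotype, and bars give the mean and SD of 3 mice. *Plin2* was higher with OxLDL than in Control in WT without overlap (568 to 614 against 438 to 477 CPM), and *Fabp4* was highest in WT mouse 1 with OxLDL (35.8 CPM).

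The plot of levels by library gives each member's values in the 6 groups, and the receptors come first. *Pparg*, the PPAR subtype that drives adipocyte formation and lipid uptake in macrophages, had 24.1, 41.9 and 32.1 CPM in WT Control macrophages of mice 1, 2 and 3, then 42.7, 48.0 and 29.9 CPM with AcLDL and 19.7, 43.8 and 24.1 CPM with OxLDL. KO macrophages had 42.8, 53.9 and 46.4 CPM in Control, 49.6, 53.9 and 38.8 CPM with AcLDL and 44.6, 47.9 and 35.8 CPM with OxLDL. Within each genotype the media overlapped, and the spread between the mice of a group was wider than the shift of the means between media. With AcLDL the log2 fold change was 0.27 (95% interval -0.27 to 0.81) in WT and -0.01 (-0.49 to 0.48) in KO, and with OxLDL it was -0.15 (-0.70 to 0.40) in WT and -0.16 (-0.66 to 0.33) in KO. A doubling of *Pparg* with either lipoprotein, which is 1 on this scale, lies outside each of these intervals, and leaving out 1 library at a time gave 0.10 to 0.49 with AcLDL and -0.59 to 0.075 with OxLDL in WT.

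*Ppard*, the subtype found in nearly all tissues, had 18.6, 16.1 and 19.0 CPM in WT Control, 18, 16.3 and 13.6 CPM with AcLDL and 17, 8.64 and 17 CPM with OxLDL. In KO it had 8.44, 8.05 and 11.6 CPM in Control, 19.7, 11.1 and 9.28 CPM with AcLDL and 6.74, 9.58 and 13.3 CPM with OxLDL. The KO library of mouse 1 with AcLDL stood above all other KO libraries, and no medium was apart from Control in either genotype. The log2 fold changes against Control were -0.17 (-0.82 to 0.48) with AcLDL and -0.35 (-1.0 to 0.31) with OxLDL in WT, and 0.47 (-0.22 to 1.17) and 0.12 (-0.61 to 0.85) in KO. At 8 to 26 counts per library these intervals are wide, and the KO values were 0.13 with AcLDL without mouse 1 of that group and -0.17 with OxLDL without its mouse 3.

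*Plin2* was the only member that any fit called. WT macrophages of mice 1, 2 and 3 had 438, 477 and 464 CPM in Control, 574, 451 and 467 CPM with AcLDL and 614, 568 and 583 CPM with OxLDL. KO macrophages had 558, 568 and 516 CPM in Control, 539, 516 and 490.0 CPM with AcLDL and 605, 614 and 562 CPM with OxLDL. All WT libraries with OxLDL lay above all those in Control, as did 5.67% of all tested genes, whereas in KO 1 library with OxLDL lay below the highest of Control. Relative to the same mouse's Control library, *Plin2* was higher with OxLDL in 6 of 6 mice, by 0.25 to 0.48 on the log2 scale in WT and by 0.11 to 0.12 in KO, and 5.55% of all tested genes were higher in 6 of 6 mice. In WT the means were 460.0 ± 19.95 CPM in Control and 588 ± 23.1 CPM with OxLDL (SD, n = 3), a 1.28-fold difference (95% interval 1.08 to 1.52). The log2 fold change was 0.35 (SE 0.12, adjusted p = 0.218 with edgeR), which does not pass. With each mouse as a block, the difference passed (log2 fold change 0.35, SE 0.0888, adjusted p = 0.0134), in a fit where 4.39% of all genes passed against 1.34% without the block. DESeq2 without the block also called it (0.35, adjusted p = 0.0487), where 1.76% of genes passed. Without WT mouse 1, which was left out after its values were seen, the log2 fold change was 0.29 (adjusted p = 0.290).

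In KO the log2 fold change of *Plin2* with OxLDL was 0.12 (-0.13 to 0.36), from 547 ± 27.4 to 594 ± 28.1 CPM (SD, n = 3). Between WT and KO, the response differed by -0.24 (-0.59 to 0.11, adjusted p = 1 with edgeR), so a difference was not shown. With AcLDL the log2 fold change was 0.11 (-0.14 to 0.36) in WT and -0.09 (-0.34 to 0.16) in KO. The WT value rested on mouse 1 (574 against 438 CPM) and was -0.03 without that mouse.

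**Figure D2:**
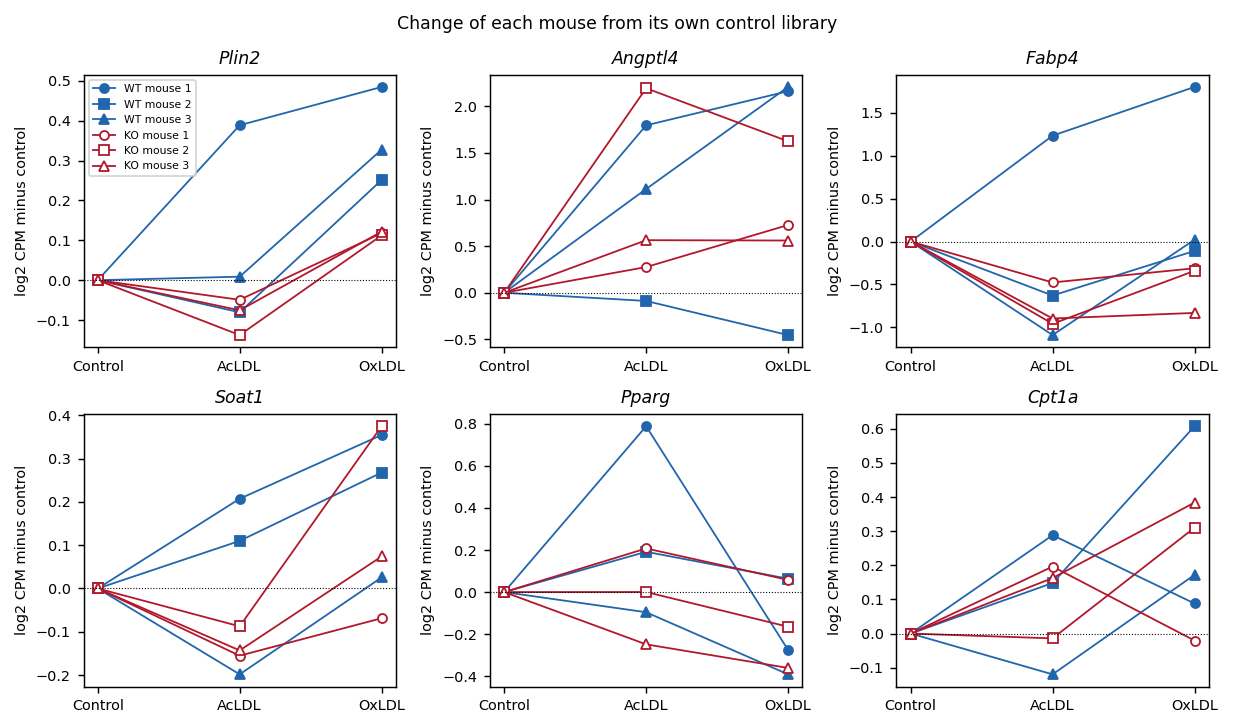
Change of 6 members in each mouse (y axes, log2 CPM minus the log2 CPM of the same mouse's Control library) in Control, AcLDL and OxLDL (x axes), with filled blue symbols for WT and open red symbols for KO mice. *Plin2* with OxLDL lay above 0 in 6 of 6 mice, *Angptl4* lay above 0 in 5 of 6 mice with either lipoprotein, and *Fabp4* with AcLDL lay below 0 in all but WT mouse 1.

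The plot of changes by mouse sets *Soat1* beside *Plin2*. *Soat1* had 536, 493 and 650.2 CPM in WT Control, 619, 533 and 566 CPM with AcLDL and 685, 594 and 662 CPM with OxLDL. In KO it had 587, 430.2 and 500.2 CPM in Control, 527, 405 and 453 CPM with AcLDL and 560, 558 and 527 CPM with OxLDL. Each medium overlapped with Control in both genotypes, and *Soat1* was higher with OxLDL than in Control in 5 of 6 mice. The log2 fold changes with OxLDL were 0.21 (-0.08 to 0.50) in WT and 0.12 (-0.18 to 0.41) in KO. With AcLDL they were 0.03 (-0.26 to 0.33) and -0.13 (-0.43 to 0.16). With the mouse as a block, the WT value with OxLDL was 0.21 (SE 0.0928, adjusted p = 0.277 with edgeR).

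*Pnpla2*, whose product releases fatty acids from stored triglyceride, had 45.5, 78.9 and 59.8 CPM in WT Control, 65.5, 53.9 and 62.6 CPM with AcLDL and 52.9, 58.6 and 62.6 CPM with OxLDL. In KO the values were 56.7, 66.9 and 60.0 CPM in Control, 55.2, 50.5 and 60.3 CPM with AcLDL and 46.3, 52.0 and 50.9 CPM with OxLDL. The 3 KO libraries with OxLDL lay below all KO Control libraries, and the WT groups overlapped. In KO with OxLDL the log2 fold change was -0.29 (-0.64 to 0.06, adjusted p = 0.522), and 11.6% of all tested genes were lower without overlap in this comparison. The values with OxLDL in WT and with AcLDL in WT and KO were -0.09 (-0.44 to 0.26), -0.04 (-0.39 to 0.32) and -0.14 (-0.49 to 0.20).

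*Hilpda*, which is induced by fatty acids and by hypoxia in many cells, had 0 to 4 counts per library and 30 counts in all, and no fold is given. A change of *Hilpda* was not detectable at this depth.

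*Cpt1a* had 127, 101 and 154 CPM in WT Control, 156, 112 and 141 CPM with AcLDL and 135, 155 and 173 CPM with OxLDL. In KO it had 133, 119 and 118 CPM in Control, 153, 118 and 132 CPM with AcLDL and 131, 148 and 154 CPM with OxLDL. The groups overlapped in every comparison of a lipoprotein with Control, and 5 of 6 mice were higher with OxLDL. The log2 fold change with OxLDL was 0.28 (-0.04 to 0.61, adjusted p = 0.584) in WT and 0.23 (-0.09 to 0.55) in KO. With AcLDL it was 0.10 (-0.23 to 0.42) and 0.12 (-0.20 to 0.43). With the mouse as a block, the WT value with OxLDL was 0.30 (SE 0.12, adjusted p = 0.218 with edgeR). *Pdk4*, a PPAR target that spares glucose when fatty acids are burnt, was not detectable at this depth in 5 of the 6 groups.

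*Angptl4* had the largest fold changes, at the lowest counts that were tested apart from *Hilpda*. It had 0.928, 5.58 and 1.46 CPM in WT Control, 6.64, 5.17 and 4.76 CPM with AcLDL and 8.96, 3.70 and 11.7 CPM with OxLDL. In KO it had 3.01, 0.619 and 3.87 CPM in Control, 3.94, 7.77 and 6.38 CPM with AcLDL and 5.89, 4.79 and 6.36 CPM with OxLDL. Both lipoproteins lay above Control without overlap in KO, as did 7.32% of all tested genes with AcLDL and 10.1% with OxLDL, whereas in WT the Control library of mouse 2 overlapped both. In KO the gap with AcLDL was 3.94 CPM (5 counts, AcLDL mouse 1) against 3.87 CPM (6 counts, Control mouse 3). It thus rested on the scaling for library size. The log2 fold change with OxLDL was 1.49 (SE 0.62, 0.22 to 2.77, adjusted p = 0.323) in WT, a 2.82-fold difference, and 1.17 (-0.11 to 2.45) in KO. With AcLDL it was 0.94 (-0.40 to 2.28) in WT and 1.28 (SE 0.61, 0.02 to 2.54, adjusted p = 0.610) in KO. Each library held 1 to 18 counts, and leaving out the WT Control library of mouse 2 moved the WT values to 2.64 with OxLDL and 2.08 with AcLDL. Without the KO Control library of mouse 2, the KO values were 0.73 and 0.83.

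*Fabp4* had fold changes of opposite sign in WT and KO with OxLDL, and 1 WT mouse stood apart. WT mice 1, 2 and 3 had 9.28, 16.8 and 16 CPM in Control, 23.7, 10.3 and 6.80 CPM with AcLDL and 35.8, 15.4 and 16.3 CPM with OxLDL. KO mice had 18.1, 18.6 and 20.6 CPM in Control, 12.6, 8.89 and 10.4 CPM with AcLDL and 14.3, 14.4 and 11 CPM with OxLDL. Among KO libraries, both lipoproteins lay below Control without overlap, as did 9.37% of all tested genes with AcLDL and 11.6% with OxLDL. In the same KO libraries the macrophage markers other than *Lyz2* were also lower without overlap between media, with sums of 5955 to 7136 CPM in Control, 5105 to 5715 CPM with AcLDL and 4110 to 5041 CPM with OxLDL, and their part in the values of *Fabp4* and *Pnpla2* was not tested. WT mouse 1 was the highest WT mouse with each lipoprotein and the lowest in Control. In KO the log2 fold change with AcLDL was -0.86 (SE 0.37, -1.62 to -0.09, adjusted p = 0.564), and with OxLDL it was -0.54 (-1.29 to 0.21). In WT it was -0.14 (-0.95 to 0.68) with AcLDL and 0.61 (-0.15 to 1.36) with OxLDL. Without WT mouse 1 the WT values were -0.93 (adjusted p = 0.306) and -0.05.

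WT mouse 1 also had the highest summed neutrophil markers of WT in each medium, with 125 CPM in Control, 216 CPM with AcLDL and 249 CPM with OxLDL, against 72.9 to 183 CPM in the other two WT mice, and the highest stromal sum of all libraries (26.0 CPM with OxLDL). The part of such cells in the *Fabp4* values of this mouse was not tested. The endothelial sum of this mouse was 92.8 CPM in Control, 118 CPM with AcLDL and 132 CPM with OxLDL, the last being the highest of all libraries, and its part was not tested either. Adipocytes, the cells with the most *Fabp4*, were represented by at most 1.79 CPM of their other markers.

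**Figure D3:**
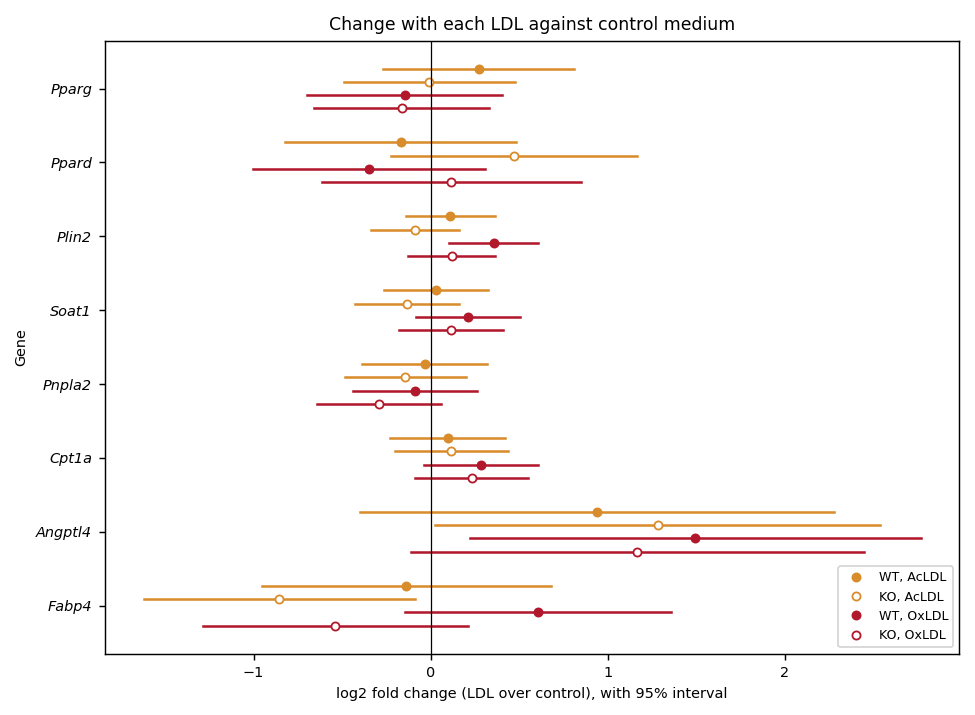
Log2 fold change (x axis) of 8 members (genes on the y axis) with AcLDL (orange) and OxLDL (red) against Control, filled for WT and open for KO. Points are edgeR estimates and lines are 95% intervals. *Plin2* with OxLDL in WT (0.35), *Angptl4* with OxLDL in WT (1.49) and with AcLDL in KO (1.28), and *Fabp4* with AcLDL in KO (-0.86) had intervals that leave out 0, before adjustment over all genes.

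The plot of lipoprotein changes places all of these side by side, and the next comparison sets OxLDL against AcLDL, with the doses differing as stated. Without the mouse as a block, none of 9 members passed in WT (background 0.00814%) or in KO (0.0651%). In that fit 0 had an unadjusted p under 0.05 (5.14% and 5.55% of all genes), and the median log2 difference of the members was 0.18 in WT and 0.11 in KO. *Plin2* was higher with OxLDL than with AcLDL in 6 of 6 mice, by 0.10 to 0.33 in WT and 0.17 to 0.25 in KO on the log2 scale. In KO its libraries did not overlap, and 6.48% of all tested genes were higher without overlap. *Soat1* (0.15 to 0.22 in WT, 0.09 to 0.46 in KO) and *Fabp4* (0.52 to 1.11 in WT, 0.07 to 0.62 in KO) were also higher in 6 of 6 mice, whereas *Pparg* was lower in 6 of 6, by -1.06 to -0.13 in WT and -0.17 to -0.11 in KO. That makes 4 of 9 tested members with a like sign in all mice, where 8.22% of all tested genes had one. This count was made after the values were seen, and it shares the OxLDL libraries with the comparison against Control. Without the mouse as a block, the fitted differences had intervals that included 0, namely 0.24 (-0.01 to 0.49) and 0.21 (-0.04 to 0.45) for *Plin2* in WT and KO, 0.18 (-0.12 to 0.47) and 0.25 (-0.04 to 0.54) for *Soat1*, and 0.74 (-0.02 to 1.51) and 0.32 (-0.50 to 1.13) for *Fabp4*. For *Pparg* they were -0.42 (-0.96 to 0.12) in WT and -0.15 (-0.65 to 0.34) in KO. In WT, *Fabp4* was 0.29 without OxLDL mouse 1 and 1.35 without AcLDL mouse 1. *Pparg* was -0.86 without OxLDL mouse 2 and -0.23 without OxLDL mouse 1. With the mouse as a block in edgeR, the unadjusted p in WT was 0.00822 for *Plin2*, 0.0260 for *Fabp4* and 0.0317 for *Pparg*. In KO it was 0.00865 for *Soat1* and 0.0240 for *Plin2*. The other members were above 0.05, no member passed (adjusted p of at least 0.234), and the share of all genes under 0.05 was not counted in that fit.

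The genotypes were then compared within each medium, and these comparisons share the same 3 mice of each genotype. In Control medium 0 of 9 members passed (background 0.00814%), while 3 had an unadjusted p under 0.05, against 3.995% of all tested genes. *Ppard* was lower in KO (log2 fold change -0.93, SE 0.33, -1.61 to -0.24, adjusted p = 1), with 8.05 to 11.6 CPM against 16.1 to 19.0 CPM. *Pparg* was higher (0.52, 0.01 to 1.04, adjusted p = 1), with 42.8 to 53.9 against 24.1 to 41.9 CPM, and *Plin2* was higher (0.25, 0.00 to 0.50, adjusted p = 1), with 516 to 568 against 438 to 477 CPM. The KO and WT libraries of these 3 genes and of *Fabp4* (18.1 to 20.6 against 9.28 to 16.8 CPM) did not overlap, which makes 4 of 9 members against 9.28% of all tested genes. WT mouse 1 was the lowest WT Control library for *Pparg*, *Plin2* and *Fabp4*. Without that mouse, left out after its values were seen, the log2 fold changes were 0.35 for *Pparg*, 0.21 for *Plin2*, 0.21 for *Fabp4* and -0.91 for *Ppard*. The WT Control libraries also serve in the comparisons of each lipoprotein with Control in WT.

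With AcLDL 0 of 9 members passed between genotypes (background 0.0163%), and 1 had an unadjusted p under 0.05 (4.89% of all genes), namely *Soat1*, which was lower in KO without overlap, as were 4.78% of all tested genes (-0.31, -0.61 to -0.02, adjusted p = 0.990). With OxLDL 0 of 9 passed (background 0.00814%) and 0 had an unadjusted p under 0.05 (4.78%), and *Soat1*, *Pnpla2* and *Fabp4* were lower in KO without overlap, as were 4.80% of all tested genes. Their log2 fold changes were -0.24 (-0.53 to 0.05), -0.22 (-0.58 to 0.13) and -0.73 (-1.48 to 0.02), and for *Fabp4* the value was -0.27 without WT mouse 1. For *Pparg* the values were 0.25 (-0.26 to 0.75) with AcLDL and 0.51 (-0.02 to 1.04) with OxLDL, and for *Ppard* -0.28 (-0.95 to 0.38) and -0.46 (-1.16 to 0.24). Single libraries moved these, to 0.07 (without WT AcLDL mouse 3) and 0.41 (without WT AcLDL mouse 2) for *Pparg* with AcLDL, and to 0.32 (without WT OxLDL mouse 1) and 0.95 (without WT OxLDL mouse 2) with OxLDL. For *Ppard* they moved to -0.63 (without KO AcLDL mouse 1) and -0.08 (without KO AcLDL mouse 3) with AcLDL, and to -0.75 (without KO OxLDL mouse 3) and -0.26 (without KO OxLDL mouse 1) with OxLDL. *Plin2* differed by 0.05 (-0.20 to 0.30) and 0.01 (-0.23 to 0.26), and *Cpt1a* by -0.04 (-0.37 to 0.28) in Control, -0.02 (-0.34 to 0.30) with AcLDL and -0.10 (-0.41 to 0.22) with OxLDL. *Lyz2*, the locus that carries Cre, was 7526 to 15337 CPM in KO and 15543 to 30462 CPM in WT libraries, without overlap, while the sum of the other 7 macrophage markers overlapped (4110 to 7136 against 3414 to 7021 CPM). Whether the WT mice carry Cre is not given in the sources used here, so the loss of *Slc7a7* and the presence of Cre cannot be told apart. Whether the *Lyz2* levels go with the members' values was not tested.

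**Figure D4:**
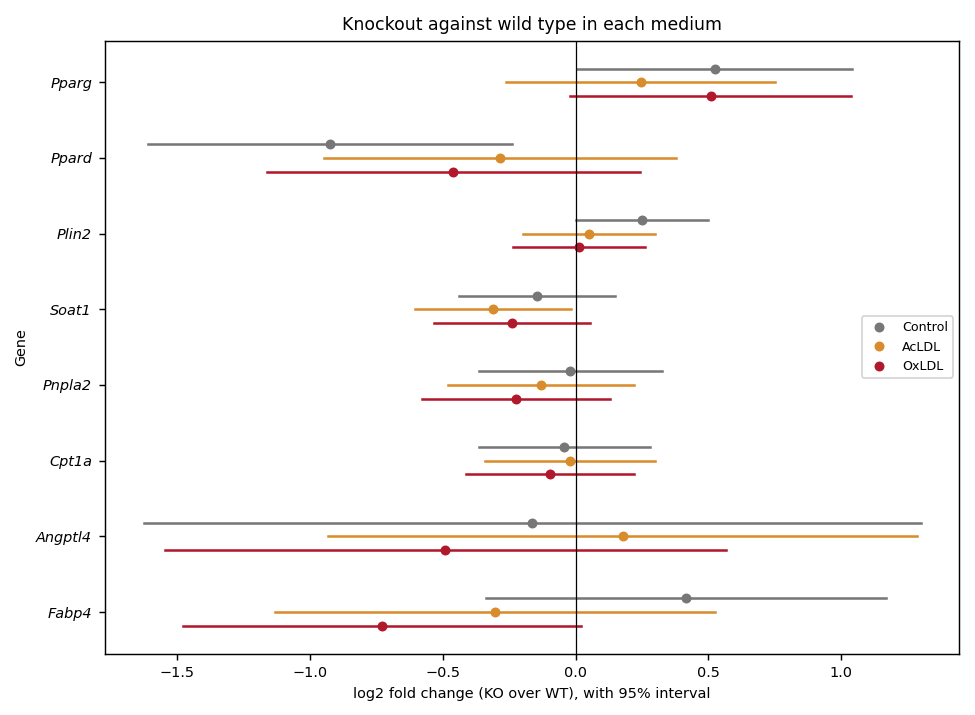
Log2 fold change in KO over WT macrophages (x axis) of 8 members (genes on the y axis) in Control (grey), AcLDL (orange) and OxLDL (red) medium, as edgeR estimates with 95% intervals. *Ppard* in Control (-0.93) lay furthest from 0 among the intervals that leave out 0, and the points of *Pparg* were to the right of 0 and those of *Ppard* to the left in each medium. The media share the same mice.

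The plot of knockout against wild type shows how wide these intervals were. The difference between genotypes in the response was tested directly as well. For AcLDL, 0 of 9 members and 0 genes in all passed with edgeR without the mouse block. In that fit 2.66% of all genes and 0 members had an unadjusted p under 0.05. The mouse block called 5 genes (0.0407%) and DESeq2 called 1 gene, and neither called a member. For OxLDL, 0 of 9 members and 0 genes in all passed with edgeR, with or without the mouse block, and with DESeq2. Without the block in edgeR, 2.75% of genes had an unadjusted p under 0.05. *Fabp4* was the single member among them, with a difference in the OxLDL response of -1.15 (SE 0.51, -2.21 to -0.08, adjusted p = 1), which was -0.48 without WT mouse 1. The other members' differences ranged from -0.33 to 0.46 for OxLDL, *Hilpda* left out, each with an interval that included 0.

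Other genes of the pathway were taken from lists. Of 25 other PPAR target genes, 19 were tested. Without the mouse block, edgeR called 2 higher and 1 lower with OxLDL in both WT (1.34% of all genes in either direction) and KO (2.32%). It called 0 higher and 1 lower with AcLDL in KO (0.521%), 1 higher for OxLDL over AcLDL in KO (0.0651%), and 0 in the other comparisons. *Cd36*, the scavenger receptor and fatty acid transporter that binds OxLDL, rose from 383 to 406 CPM in WT Control libraries to 1019 to 1425 CPM with OxLDL, and from 432 to 535 to 1033 to 1947 CPM in KO. These are log2 fold changes of 1.60 (SE 0.19, adjusted p = 2.06e-05) in WT and 1.62 (SE 0.19, adjusted p = 1.33e-05) in KO. *Cat*, the peroxisomal catalase, rose from 582, 325 and 495 to 1036, 659 and 953 CPM in WT mice 1, 2 and 3 and from 550.5, 406 and 393 to 759, 856 and 793 CPM in KO mice. Each mouse's own value was higher with OxLDL, and the groups did not overlap. On the log2 scale the change of *Cat* was 0.92 (SE 0.20, adjusted p = 0.0138) in WT and 0.83 (SE 0.20, adjusted p = 0.0208) in KO.

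*Acsl1*, an acyl-CoA synthetase that activates fatty acids for oxidation or storage, fell in the same cells. It went from 70.6, 117 and 117 CPM in WT Control to 60.0, 68.5 and 54.1 CPM with OxLDL, and from 114, 118 and 129 CPM in KO Control to 69.3, 77.2 and 58.6 CPM with AcLDL and 77.5, 65.0 and 65.9 CPM with OxLDL. The log2 fold change was -0.75 (SE 0.19, adjusted p = 0.0416) in WT with OxLDL, -0.80 (SE 0.18, adjusted p = 0.0132) in KO with OxLDL and -0.81 (SE 0.18, adjusted p = 0.0303) in KO with AcLDL. *Cd36* was also higher with OxLDL than with AcLDL in KO (1.02, SE 0.19, adjusted p = 0.0381).

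Some of these calls were lost when 1 library was left out, while the log2 fold changes kept their sign. They ranged from 0.71 to 1.12 for *Cat* in WT and from 0.75 to 1.02 in KO. For *Acsl1* they ranged from -0.93 to -0.63 with OxLDL in WT, and in KO from -0.86 to -0.74 with OxLDL and from -0.89 to -0.70 with AcLDL. *Cat* in WT was lost without Control mouse 2 (adjusted p = 0.138), OxLDL mouse 1 (0.0627) or OxLDL mouse 3 (0.0832), and in KO without Control mouse 2 (0.118) or 3 (0.135) or OxLDL mouse 2 (0.104) or 3 (0.0715). *Acsl1* with OxLDL was lost in WT without Control mouse 2 (0.265) or 3 (0.205) or OxLDL mouse 1 (0.0908) or 3 (0.211), and in KO without Control mouse 3 (0.0726) or OxLDL mouse 2 (0.0884) or 3 (0.0891). *Acsl1* with AcLDL in KO was lost without any 1 of the 6 libraries (adjusted p from 0.0784 to 0.320), and *Cd36* for OxLDL over AcLDL in KO without AcLDL mouse 1 (0.338), 2 (0.116) or 3 (0.133) or OxLDL mouse 2 (0.562) or 3 (0.235). *Cd36* against Control was called without any 1 library, with adjusted p of at most 0.000344. With all libraries, DESeq2 and the mouse block made each of these *Cat*, *Acsl1* and *Cd36* calls as well. With the block, the adjusted p of *Cat* with OxLDL was 1.03e-08 in WT and 6.23e-08 in KO. That of *Acsl1* was 0.000705 in WT and 8.17e-05 in KO with OxLDL, and 0.000168 in KO with AcLDL.

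With the mouse as a block, *Acsl1* passed with AcLDL in WT as well (-0.61, adjusted p = 0.0142), *Cd36* passed with AcLDL in WT (0.71, adjusted p = 2.25e-05) and KO (0.58, adjusted p = 0.000250), and *Cat* passed for OxLDL over AcLDL in WT (0.86, adjusted p = 8.41e-07) and KO (0.76, adjusted p = 7.05e-06). *Fabp5*, *Lpl* and *Slc25a20* were further calls of that fit in at least 1 comparison. DESeq2 without a block also called *Cd36* with AcLDL in WT, and *Cat* and *Cd36* for OxLDL over AcLDL in both genotypes. With the mouse block 2.16% of all genes passed with AcLDL in WT and 2.50% in KO, and 0.732% and 1.38% for OxLDL over AcLDL. With OxLDL against Control the block passed 4.39% in WT and 7.18% in KO. DESeq2 passed 1.76% and 3.25% there, and 0.627% and 0.716% with AcLDL.

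**Figure D5:**
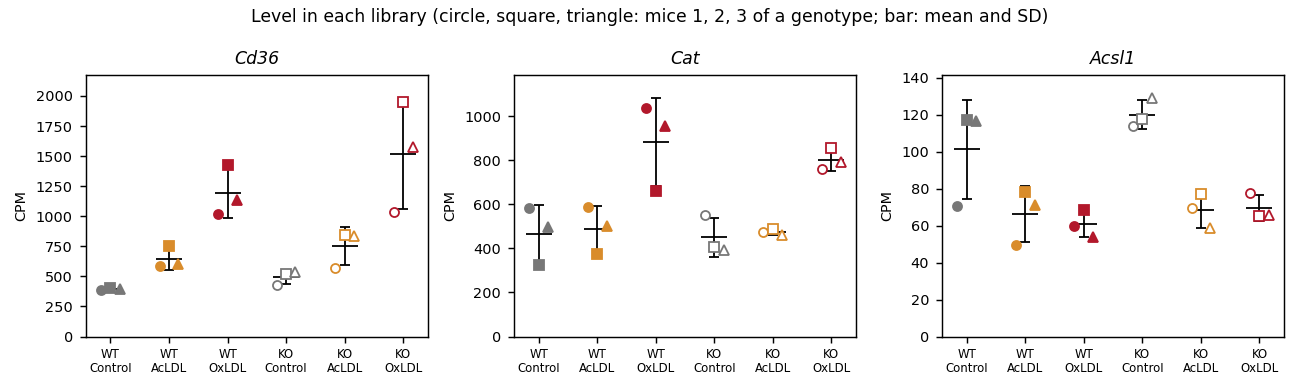
Level of 3 further PPAR target genes (y axes, CPM from 0) in the 6 groups (x axes), drawn as 1 point per library with the mean and SD of 3 mice. *Cat* with OxLDL lay above Control without overlap in both genotypes (659 to 1036 against 325 to 582 CPM in WT), and *Acsl1* lay below it (54.1 to 68.5 against 70.6 to 117 CPM in WT).

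The plot of further PPAR targets shows the 3 genes that edgeR without the mouse block called in that list. In that fit the remaining lists gave 0 calls in the 11 comparisons. Of the receptors and coregulators 13 of 16 were tested and 0 passed. At most 1 had an unadjusted p under 0.05 in a comparison, with OxLDL in KO (12.3% of all genes) and for OxLDL over AcLDL in WT (5.14%). DESeq2 called 0 as well, as did the mouse block in the comparisons it was fitted for. *Ppara* did not pass the filter on low counts, and *Rxra*, the gene of a partner of PPARs, differed by 0.05 (-0.52 to 0.61) with AcLDL and 0.16 (-0.39 to 0.71) with OxLDL in WT, and by 0.06 (-0.52 to 0.63) and 0.28 (-0.29 to 0.85) in KO. Of mitochondrial fatty acid oxidation 23 of 24 were tested and 0 passed. At most 4 had an unadjusted p under 0.05, with OxLDL in WT (10.03% of all genes). For the genotype difference in the OxLDL response, 3 of 23 had one, all lower, against 2.75% of all genes in either direction. The median log2 fold changes were -0.06 and 0.02 in WT and -0.16 and -0.11 in KO for AcLDL and OxLDL. Of the lipid droplet, ester synthesis and lipolysis list 20 of 32 were tested and 0 passed. At most 3 had an unadjusted p under 0.05, with OxLDL in KO (12.3% of all genes). The medians were -0.03 and 0.00 in WT and -0.02 and 0.03 in KO. Of hypoxia-responsive genes, the group to which *Hilpda* belongs, 19 of 20 were tested and 0 passed. At most 2 had an unadjusted p under 0.05, with OxLDL in KO (12.3% of all genes) and for OxLDL over AcLDL in WT (5.14%) and KO (5.55%). DESeq2 called 1 gene of these lists, the cholesterol ester hydrolase gene *Nceh1* with OxLDL in KO, where 3.25% of genes passed. The mouse block called *Nceh1*, *Hadha* and *Lipe* there, *Nceh1* also for OxLDL over AcLDL in KO, and *P4ha2* with OxLDL in WT. Without the block, the log2 fold changes with OxLDL in KO were 0.39 for *Nceh1*, -0.40 for *Hadha* and -0.85 for *Lipe*. Those of the other calls were 0.34 for *Nceh1* and 1.72 for *P4ha2*. Over all genes the mouse block called 7.18% with OxLDL in KO, 4.39% with OxLDL in WT and 1.38% for OxLDL over AcLDL in KO, and the calls in these lists are to be read against these shares.

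The genes whose pattern over the 18 libraries was most like that of *Plin2*, by Pearson's r of log2 CPM among 8607 genes with a mean of at least 10 CPM, were *Tmem43* (0.81), *Taldo1* (0.80), *Serpinb9* (0.79), *Fam198b* (0.78) and *Akr1b8* (0.77). Those most like *Angptl4*, among 8608 genes, were *Fam122a* (0.77), *Zfp458* (0.72), *Abcg1* (0.72), *Mrs2* (0.71) and *Lrrc8d* (0.71). Among the members the highest values were 0.62 for *Cpt1a* with *Soat1* and 0.58 for *Plin2* with *Fabp4*. These are descriptions over libraries that share mice, media and depth, and the genes named are the top of a long ranking.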

How the data were processed

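RNA-Seq libraries were made by the submitters with a stranded total RNA kit. Per the labels and the study's methods, reads were trimmed (Trim Galore, in the nf-core pipeline), aligned with STAR to mm10 and quantified with Salmon on Ensembl release 93, without versions given. The deposited table holds estimated counts per gene that the authors did not normalize, and up to 8.10% of the values of a library were not whole. The strand setting is not given in the sources used here.

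Counts were rounded and tested with edgeR 4.0.16 in R 4.3.3 (quasi-likelihood, TMM, 18 libraries in 1 fit of 6 groups, 12 residual degrees of freedom, Benjamini-Hochberg threshold 0.05). The filter (filterByExpr, minimum count 2, minimum total 10) left 12290 of 31053 genes. Intervals are 95% and hold before adjustment. CPM used TMM factors of 0.956 to 1.03, log2 CPM a prior count of 2. Library totals of 1043492 to 1768816 limit the precision of low genes.

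Replicates are separate mice, and the labels give the same mouse to the 3 media of a genotype. Deviations of libraries of 1 mouse correlated at 0.0551 to 0.293 (over 0.1 in 14 of 18 pairs), and the mouse was a block in an alternative. Between genotypes the replicate number, which pairs no animals, was the block, and no call of that fit is used. Other alternatives were DESeq2 1.42.0, RLE factors, library size alone, 2 other filters, only the libraries compared, and each library left out. Leaving out WT mouse 1 was chosen after seeing the data.

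Named were all members, genes of the other lists that passed the threshold (at most 4 a list and comparison), *Ppara*, *Rxra*, *Slc7a7* and the 5 genes most like *Plin2* and *Angptl4*. *Fabp5*, *Lpl*, *Slc25a20*, *Nceh1*, *Hadha*, *Lipe* and *P4ha2* were named after their calls in alternative fits were seen. The members and lists were chosen with earlier results of these data known. Scripts were tested on simulated data. Promoters came from RefSeq tables (GRCm38.p6).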

Additional observations from a re-analysis of the deposited data

How the results depend on the processing

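Of 1240 alternative values for 88 member results, 2 made a call, both for *Plin2* with OxLDL in WT. DESeq2 and the mouse block each called 1 member there, against 0 without them. Neither called a member in another comparison. The mouse block was not fitted for KO against WT within a medium, and DESeq2 gave some members no adjusted p, as stated above. The paired fit with the replicate block gave *Plin2* 0.35 (adjusted p = 0.0134), and DESeq2 gave 0.35 (adjusted p = 0.0487). Leaving out 1 library gave 0.32 to 0.38 (adjusted p from 0.251 to 0.431). The sign of 50 values changed by less than 1 SE and of 8 by more. Without WT mouse 1, chosen after seeing the data, *Plin2* with AcLDL in WT was -0.031, *Fabp4* with OxLDL in WT -0.047, *Fabp4* between genotypes with AcLDL 0.30 and its genotype difference in the AcLDL response 0.089. Leaving out 1 library each, *Pnpla2* in WT ranged from -0.19 to 0.19 with AcLDL and from -0.24 to 0.14 with OxLDL, positive without WT Control mouse 2. Between genotypes in Control, *Angptl4* ranged from -0.59 to 0.98, *Cpt1a* from -0.19 to 0.12 and *Pnpla2* from -0.17 to 0.21. *Fabp4* between genotypes with AcLDL ranged from -0.64 to 0.30, the genotype difference of *Angptl4* in the AcLDL response from -0.80 to 0.77 and that of *Pparg* in the OxLDL response from -0.24 to 0.44. With library size alone, *Acsl1* with OxLDL in WT (adjusted p = 0.0515), *Acsl1* with AcLDL in KO (0.0509) and *Cd36* for OxLDL over AcLDL in KO (0.0557) lost their calls. With only the libraries compared, *Cat* (0.196) and *Acsl1* (0.260) with OxLDL in WT lost theirs. Over all genes, the block raised the calls from 58 to 265 and from 165 to 539 with AcLDL and OxLDL in WT, and from 64 to 307 and from 285 to 882 in KO. With only the libraries compared, the OxLDL counts were 62 in WT and 751 in KO. The causes were not tested. Depth limits *Angptl4*, *Hilpda*, *Pdk4* and *Ppard*.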
